A study of Zea mays with 9 samples.

Results

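Whole maize kernels of the inbred B73 at 3 days after pollination (DAP) were compared with whole kernels at 2 DAP, using 1 RNA-seq library at each age out of the 9 libraries of the series. The members were chosen by the age label alone, so every measured difference between the 2 libraries is an outcome. Both groups came from self-pollinated B73 plants in a greenhouse with a 16-hour day, carry no transgene or mutation in the labels, and were pinched off at the base, so they hold pericarp, nucellus, pedicel tissue, endosperm and embryo together. Unpollinated kernels at 0 DAP (technical replicates a and b of 1 sample), 4 DAP kernels and 6 DAP kernels serve here to place the 2 to 3 DAP difference in time. They are of the same genotype and dissection. Each age is 1 biological sample.

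After fertilization the cereal endosperm first divides its nuclei without walls, which gives a coenocyte lining the central cell. Walls then form between the nuclei, and cells at the base, at the surface and around the embryo take on different fates. At these ages the endosperm is a small part of a kernel that consists mostly of maternal nucellus and pericarp, and in such bulk tissue fewer cells of a type and less RNA per cell cannot be told apart.

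The 2 DAP library held 20408282 counted reads and the 3 DAP library 22858089. Levels are given as the normalised read count v (CPM after scaling between libraries), and a v of 10 rested on 303.8 reads at 2 DAP and 339.7 reads at 3 DAP. Differences are on the log2(v + 1) scale, which understates the change of low genes, and intervals are exact 95% intervals of the ratio of v that cover counting error only. A gene passed the technical-spread rule when its difference exceeded the 99th percentile of the absolute difference between the 0 DAP technical replicates among genes of like level. It passed the stricter 4-fold rule when (v + 1) differed by a ratio of 4 or more, v reached 10 in the higher library and the interval left out 1. "Rose" and "fell" are used for genes that passed the technical-spread rule. With 1 library a side no p-value can be given, and differences between individual samples of 1 age are not measured.

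Markers gave mixed support to the tissue labels. In the list of nucellus, pericarp and ovule coat genes 5 of 8 were detected. Its MADS-box members were abundant, with zag1, an AGAMOUS-like floral gene, at 68.4 at 2 DAP and 85.7 at 3 DAP, while the pigment genes p1, whp1 and c2 were below 1 and A1 was at 1.65 and 7.89. Zein and late starch genes, which belong to the filling endosperm, summed to 1324 at 2 DAP and 1291 at 3 DAP over 34 genes, close to 1369 and 1236 in the 0 DAP replicates, but to 33.4 at 6 DAP. The source of these reads was not tested, and their level was nearly the same on both sides of the comparison. None of 4 embryo-surrounding region genes reached a mean v of 1, and 1 of 11 embryo markers did. Of 9 pollen markers only the profilin gene PRO4 was detected, at 68.2 at 2 DAP and 75.4 at 3 DAP, and since it was at 37.5 and 47.0 in the 0 DAP replicates it cannot be read as a measure of pollen.

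The 2 libraries were alike over most of the transcriptome, and a small set of genes moved in both directions. Of 32922 gene models whose v averaged 1 or more, 647 (1.97%) rose and 606 (1.84%) fell, against 330 models (1.00%) beyond the same limits between the technical replicates, where the rule fixes that share. Under the 4-fold rule 155 of 14950 models were higher at 3 DAP (1.04%) and 144 were lower (0.963%), while the technical replicates gave 77 of 14382 (0.535%). The median difference over all models was 0.02, and the rank correlation of v between 2 and 3 DAP across 44687 models, a description since genes are not independent, was 0.917 against 0.956 for the technical replicates. The SD of the difference was larger than in the technical pair at every level, from 1.31 times at a v of 1 to 3 to 1.69 times at a v of 300 or more.

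**Figure D1:**
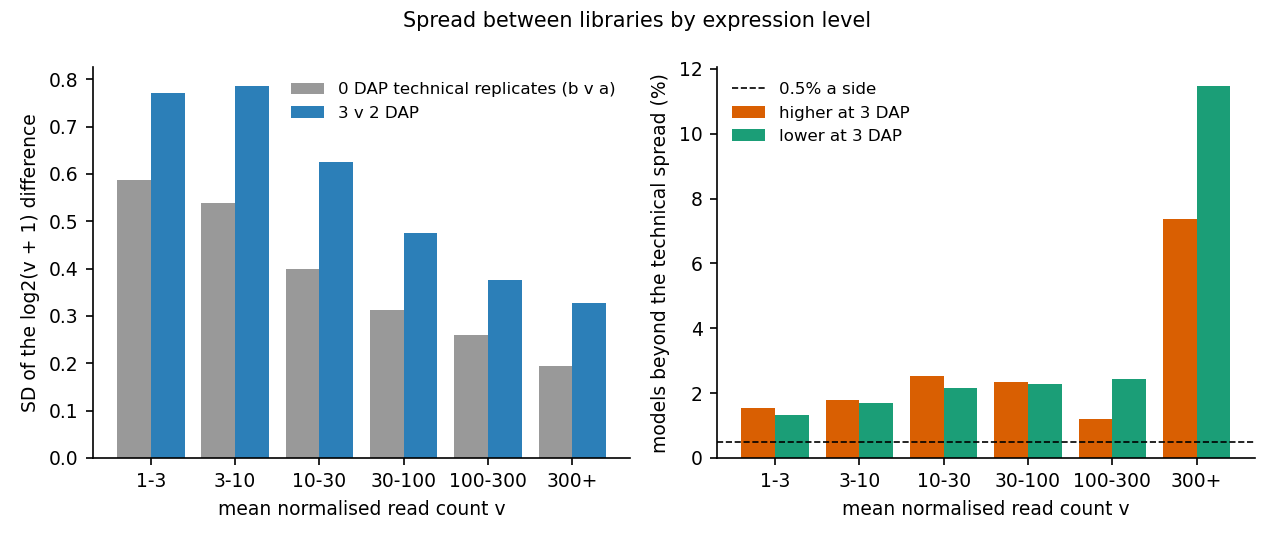
Spread between libraries by mean level v (horizontal axis). Left, SD of the log2(v + 1) difference for the 0 DAP technical replicates (grey) and for 3 against 2 DAP (blue), which is larger in all 6 bins; right, percent of models beyond the technical limits, higher (orange) and lower (green), with a dashed line at 0.5% a side.

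Nearly all of the largest differences lay in gene models without a name, but so did most models tested, since 1058 of 14950 carried a usable name. Only 3 of the 155 higher models and 3 of the 144 lower ones carried one. The 4-fold rule called 0.284% of named models in each direction, against 1.04% of all models higher and 0.963% lower. The named genes that were at least 4-fold higher were lox1, ocl3 and GLN6, and those lower were arpp1a, mtl and HAK9. Among named models the technical-spread rule called 34 of 1640 higher (2.07%) and 22 lower (1.34%), against 1.97% and 1.84% of all models.

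The named genes that rose most included enzymes of oxylipin synthesis, an epidermal factor and enzymes of nitrogen and secondary metabolism. OCL3 (ocl3), a homeodomain-leucine zipper factor of the outer cell layer family, had v of 23.5 and 36.8 in the 0 DAP replicates, 5.79 at 2 DAP, 29.9 at 3 DAP and 21.2 at 4 DAP. Only the 2 DAP library was low and the other kernels, 6 DAP included, were within the range of 21.2 to 36.8, and the 3 DAP level was 5.16 times the 2 DAP level (95% interval 4.39 to 6.09). The glutamine synthetase gene GLN6 went from 3.09 to 16.5, a ratio of 5.32 (4.27 to 6.69), with 0.557 to 2.80 in the 0 DAP replicates and 6.11 at 4 DAP, so that 3 DAP was its highest kernel library. ZmMRP2 was at 169 and 174 at 0 DAP, 26.7 at 2 DAP, 109 at 3 DAP, 159 at 4 DAP and 160 at 6 DAP, with the 2 DAP library far below the other kernel libraries.

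Among genes named for gibberellin synthesis, the growth hormone pathway, 2 rose. The gene eks1, named for ent-kaurene synthase, also carries the terpene synthase name tps1, and its product was not tested. It went from 38 reads and a v of 1.25 at 2 DAP to 267 reads and 7.86 at 3 DAP. The ratio was 6.28 (4.46 to 9.08), and the gene was at 3.67 and 2.56 at 0 DAP and 3.81 at 4 DAP. The ent-copalyl diphosphate synthase gene an1 was at 32.1 and 43.5 at 0 DAP, 30.3 at 2 DAP, 62.5 at 3 DAP, 71.3 at 4 DAP and 38.5 at 6 DAP. By these names both act early in the pathway, and an1 stayed high at 4 DAP while eks1 did not. In the list of gibberellin, brassinosteroid, abscisic acid and ethylene genes, 2 of 18 detected genes (11.1%) rose, against 1.97% of all models, and none fell, with a median difference of 0.30 against -0.19 between the technical replicates.

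Other risers fell into transport, protein folding and defence. The plasma membrane aquaporin gene PIP1-1 rose from 26.1 to 56.2 and was at 68.8 at 4 DAP, after 26.9 and 21.4 at 0 DAP. HAK1, of the high-affinity potassium transporter family, rose from 14.9 to 44.2 and was at 59.6 at 4 DAP and 107 at 6 DAP, against 18.02 and 20.1 at 0 DAP, so the 3 DAP library lay on a course of increase. HAK9 of the same family fell from 48.6 to 10.9, a ratio of 4.45 (3.97 to 5.00), with 56.7 and 54.1 at 0 DAP, 33.6 at 4 DAP and 30.7 at 6 DAP, which made 3 DAP its lowest kernel library. The small heat shock gene hsp18f rose from 9.71 to 30.4 and was at 44.3 at 4 DAP, and the calreticulin gene crt2, a calcium-binding chaperone of the endoplasmic reticulum, rose from 274 to 424 and was at 271 at 4 DAP. These were the 2 of 32 detected chaperone genes that rose (6.25%, against 1.97% of all models), and none fell.

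**Figure D2:**
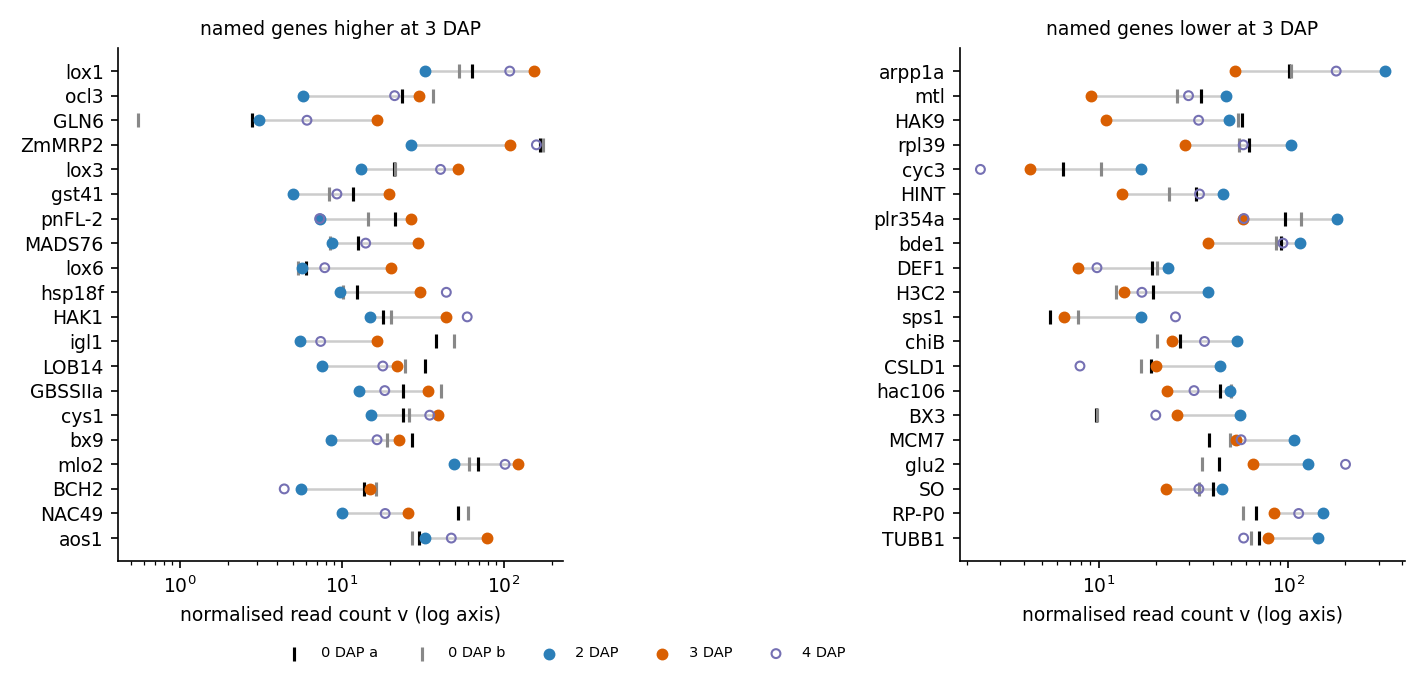
Normalised read count v (log axis) of the 20 named genes with the largest increase (left) and the 20 with the largest decrease (right) at 3 DAP. Blue points are 2 DAP, orange points 3 DAP, open circles 4 DAP and ticks the 0 DAP technical replicates; for ocl3 and ZmMRP2 the 2 DAP point stands apart from the others, for HAK9 and mtl the 3 DAP point.

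Genes of jasmonate and related oxylipins formed the list with the most members beyond the technical spread in the main setting. By share the defence and protease inhibitor list was slightly ahead, at 18.2% against 17.1%. Lipoxygenases add oxygen to polyunsaturated fatty acids, allene oxide synthases and cyclases turn one class of the products into jasmonate precursors, and TIFY proteins include the JAZ repressors of jasmonate signalling. Of 41 detected genes 7 rose and none fell, which is 17.1% against 1.97% of all models and 2.07% of named models that rose. The differences were above 0 in 30 genes and below 0 in 11, with a median of 0.33 against 0.02 over all models. Between the technical replicates the same list had a median of -0.19.

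The gene lox1 was at 63.6 and 53.0 in the 0 DAP replicates, 32.6 at 2 DAP, 154 at 3 DAP, 109 at 4 DAP and 210 at 6 DAP, and its 3 DAP level was 4.73 times its 2 DAP level (4.42 to 5.07). The gene lox3 followed the same order, at 21.2 and 21.3, then 13.1, 52.0, 40.8 and 83.0, a ratio of 3.97 (3.56 to 4.44). In both genes every kernel library from 3 DAP on lay above every earlier one. The third lipoxygenase that rose, lox6, was at 6.02 and 5.34 at 0 DAP, 5.73 at 2 DAP, 20.1 at 3 DAP, 7.86 at 4 DAP and 53.3 at 6 DAP, with 4 DAP close to the early libraries.

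Whether the 3 lipoxygenases that rose feed jasmonate synthesis was not tested. The allene oxide synthase gene aos1 was at 30.1 and 27.3 at 0 DAP, 32.6 at 2 DAP and 79.1 at 3 DAP. It was at 47.5 at 4 DAP and 135 at 6 DAP. The ratio of 3 DAP to 2 DAP was 2.42 (2.25 to 2.61). The allene oxide cyclase gene aoc2 was at 50.7 and 44.4, then 26.4, 52.5, 23.3 and 21.9. Its 3 DAP level was thus near the 0 DAP level. The counts of aoc2 lay within 2% of those of another model and are therefore uncertain. Grouped by role after their values were seen, all 10 detected allene oxide synthase, cyclase and OPDA reductase genes were above 0, with differences from 0.03 to 1.39. The 10 lipoxygenase-family genes, ts1 included, had 7 above 0 and a median of 0.51, and lox5, at 58.3 and 65.0, was the most abundant of those that did not pass.

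Among the TIFY genes, pnFL-2 was at 21.2 and 14.6 at 0 DAP, 7.31 at 2 DAP, 26.8 at 3 DAP, 7.32 at 4 DAP and 19.1 at 6 DAP. TIFY25 was at 26.6 and 25.6, then 5.73, 14.9, 4.49 and 10.7. Both were low at 2 DAP and 4 DAP and higher between them. Of 21 detected TIFY and JAZ genes 13 were above 0 and 8 below, and 2 rose, where 1.97% of all models rose. Over the whole list the summed v was 1207 and 1071 in the 0 DAP replicates, 710 at 2 DAP, 1108 at 3 DAP, 882 at 4 DAP and 1387 at 6 DAP, and the 2 DAP library was the lowest of the kernel libraries.

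**Figure D3:**
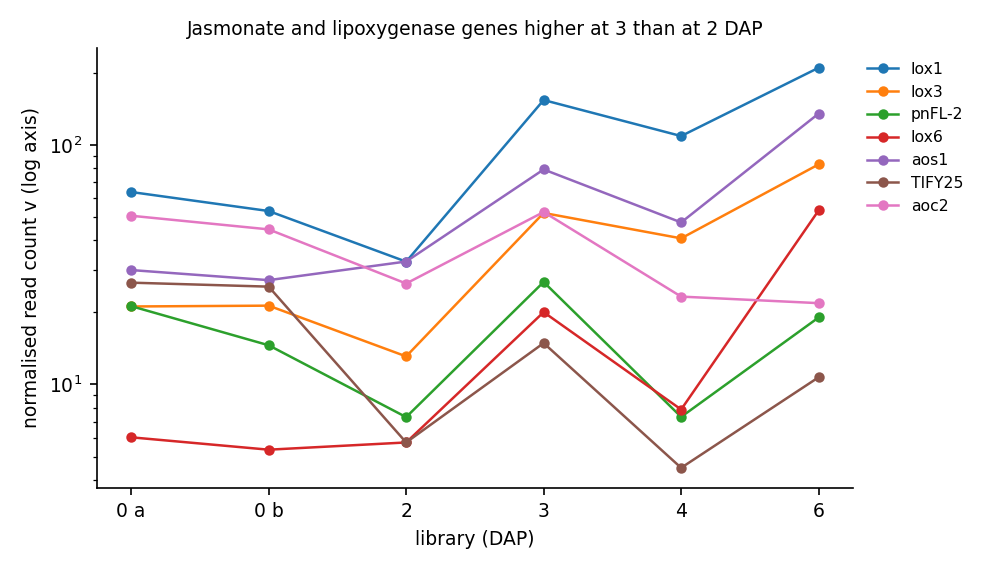
Normalised read count v (log axis) of the 7 jasmonate and lipoxygenase genes that rose at 3 DAP, in the 0 DAP technical replicates a and b and at 2, 3, 4 and 6 DAP (1 library each). All 7 are higher at 3 than at 2 DAP, and lox1, lox3, lox6 and aos1 are highest at 6 DAP.

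Defence genes moved in both directions. Benzoxazinoids are the indole-derived defence compounds of maize, and of 33 detected defence and protease inhibitor genes 3 rose and 3 fell, together 18.2% against 3.81% of all models. The indole-3-glycerol phosphate lyase gene igl1, listed beside the benzoxazinoid genes, was at 38.0 and 49.2 at 0 DAP and 5.53 at 2 DAP. It was at 16.4 at 3 DAP, 7.42 at 4 DAP and 13.1 at 6 DAP. Of the benzoxazinoid genes, the glucosyltransferase gene bx9 rose from 8.59 to 22.7, which was within its 0 DAP levels of 27.1 and 19.2. By contrast BX3, a cytochrome P450 gene of benzoxazinoid synthesis, was at 9.66 and 9.75 at 0 DAP, 55.9 at 2 DAP, 26.0 at 3 DAP and 19.9 at 4 DAP. Outside that pathway, the mlo2 gene of the MLO membrane protein family rose from 49.1 to 122 and was at 102 at 4 DAP and 111 at 6 DAP. The chitinase gene chiB fell from 53.7 to 24.2, and DEF1 from 23.1 to 7.74.

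Genes of the cell cycle were mostly lower at 3 DAP than at 2 DAP, by amounts that for all but single genes stayed within the technical spread. In DNA replication and repair 15 of 21 detected genes were below 0, with a median of -0.24 against 0.05 between the technical replicates. Among 20 mitosis and cyclin genes 13 were below 0, with a median of -0.24 against 0.17. In each list 1 gene fell and none rose, which is 4.76% and 5.00% of the list against 1.84% of all models that fell.

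The gene that fell in replication was MCM7, a subunit of the helicase that opens DNA at origins. It was at 38.0 and 49.1 at 0 DAP, 107 at 2 DAP, 52.9 at 3 DAP, 56.3 at 4 DAP and 19.5 at 6 DAP, so 2 DAP was its highest kernel library, and the 2 DAP level was 2.02 times the 3 DAP level (1.90 to 2.14). All 8 genes for MCM subunits, the sliding clamp PCNA and ribonucleotide reductase, grouped after their values were seen, were below 0, with differences from -0.999 to -0.07. For pcna1 the levels were 17.7 and 19.1 at 0 DAP, 58.5 at 2 DAP, 41.3 at 3 DAP, 30.9 at 4 DAP and 33.8 at 6 DAP. In contrast the 4 origin recognition complex genes, which mark origins before the helicase is loaded, were all above 0, from 0.35 to 0.43, and none passed.

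In mitosis, the cyclin gene cyc3 was at 6.44 and 10.2 at 0 DAP, 16.6 at 2 DAP, 4.30 at 3 DAP, 2.36 at 4 DAP and 3.37 at 6 DAP, a ratio of 3.87 (3.21 to 4.68). The kernel libraries from 3 DAP on lay below the earlier kernel libraries. Of the 10 genes named as cyclins 9 were below 0. For wee1, the kinase that restrains entry into mitosis, the levels were 24.6 at 2 DAP and 12.2 at 3 DAP, and for the cyclin gene cyclin4 98.5 and 72.6, with 30.2 at 4 DAP.

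Histone genes were high at 2 DAP and lower at 3 DAP, but not by more than the technical replicates differed. Their summed v over 9 genes was 719 and 567 in the 0 DAP replicates, 1172 at 2 DAP, 980 at 3 DAP and 629 at 4 DAP. Their median difference of -0.23 was smaller than the -0.33 between the replicates. Only H3C2, named as a histone H3 gene, fell (11.1% of the list, against 1.84% of all models). It went from 37.6 to 13.6, after 19.2 and 12.3 at 0 DAP.

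Genes for the cytoskeleton and the cell wall, which serve the phragmoplast and the new walls, showed few differences beyond the technical spread. Of 31 detected tubulin, actin and motor genes 21 were below 0, and the beta-tubulin gene TUBB1 alone fell (3.23% of the list, against 1.84% of all models), from 143 to 78.4, with 69.7 and 63.5 at 0 DAP and 58.1 at 4 DAP. The alpha-tubulin gene tua4, the most abundant of them at 2 DAP, was at 799 at 2 DAP and 652 at 3 DAP. Among 39 wall synthesis and expansion genes 22 were above 0 and 17 below. Only CSLD1, a cellulose synthase-like gene needed for normal cell division in maize leaves, fell (2.56% of the list, against 1.84% of all models). It went from 43.6 to 19.99 and was at 7.93 at 4 DAP. The beta-expansin gene expB6 was at 2.80 and 1.49 at 0 DAP, 11.7 at 2 DAP and 13.98 at 3 DAP, and reached 106 at 4 DAP, so its large step lay after 3 DAP.

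**Figure D4:**
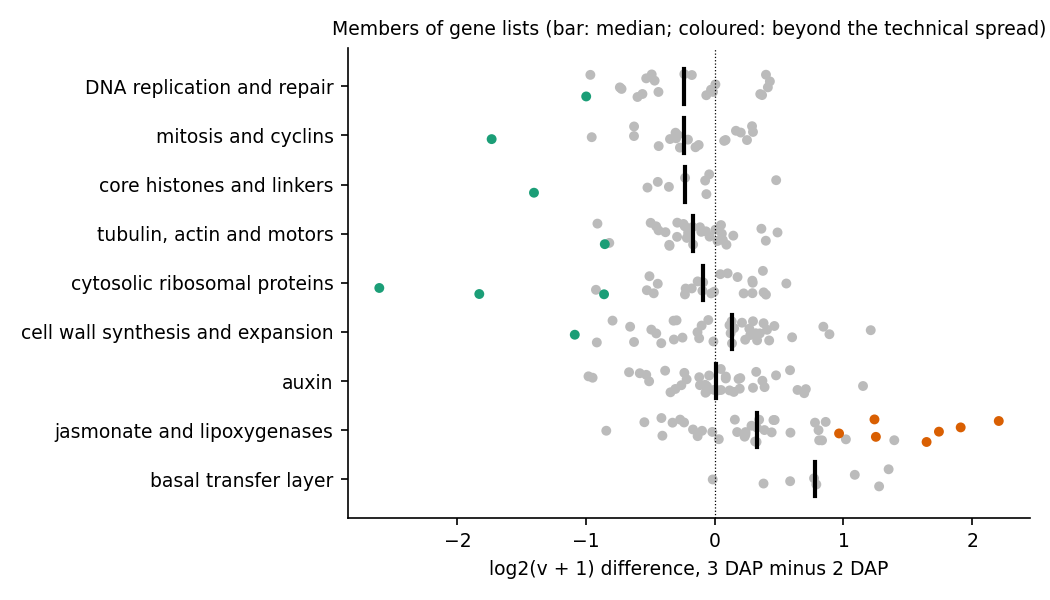
Difference in log2(v + 1), 3 DAP minus 2 DAP, of every detected member of 9 gene lists (points), with the list median as a black bar. Orange points rose and green points fell beyond the technical spread; the jasmonate and lipoxygenase list holds 7 orange points and no green one, the replication and cyclin lists 1 green point each.

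Ribosomal protein genes were nearly balanced apart from 3 that fell. The 3 are 11.1% of 27 detected genes, against 1.84% of all models that fell. In the list 11 genes were above 0 and 16 below, with a median of -0.09 against -0.12 between the technical replicates. The gene arpp1a, for the acidic stalk protein P1, was at 101 and 104 at 0 DAP, 322 at 2 DAP, 52.1 at 3 DAP, 179 at 4 DAP and 136 at 6 DAP. Its lowest kernel library was 3 DAP and its highest 2 DAP, with a ratio of 6.19 (5.88 to 6.51). In the same way rpl39 went from 104 to 28.4 and back to 57.8 at 4 DAP, and RP-P0, the stalk base protein, from 153 to 83.9 and to 113. Other stalk protein genes did not follow, with arpp2a at 189.8 and 178 and arpp3 at 129.9 and 129.5 at 2 and 3 DAP. The gene rpl30, near absent at 0 DAP with 1.01 and 0.329, was at 42.6 at 2 DAP and 63.1 at 3 DAP.

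Transcription factor families showed single members that passed. In the MADS-box family, which governs floral organ and ovule identity, 1 of 30 detected genes rose and 1 fell, together 6.67% against 3.81% of all models. MADS76 was at 12.7 and 8.48 at 0 DAP, 8.66 at 2 DAP, 29.7 at 3 DAP and 14.1 at 4 DAP, and bde1, the bearded-ear gene of floral development, at 91.0 and 86.2, then 115.5, 37.6 and 93.6. Among the kernel libraries MADS76 was highest and bde1 lowest at 3 DAP. NAC49 rose from 10.0 to 25.7 but stayed below its 0 DAP levels of 52.1 and 59.9. None of the 22 AP2/ERF, 24 MYB, 26 bZIP, 22 bHLH, 9 WRKY, 13 SBP or 9 growth-regulating factor genes detected passed, nor did any of 39 chromatin genes.

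Hormone lists other than those above showed no member beyond the technical spread. In the auxin list 20 of 40 detected genes were above 0 and 20 below, with a median of 0.01, which turned below 0 with other scalings. The 23 detected cytokinin genes had 11 above and 12 below, with a median of -0.19. The smallest difference that could pass was 0.42 at a v of 300 or more and 1.92 at a v of 3 to 10, so smaller differences in these lists were not detectable.

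Carbohydrate genes changed singly. The sucrose phosphate synthase gene sps1 was at 5.49 and 7.75 at 0 DAP, 16.6 at 2 DAP, 6.54 at 3 DAP, 25.3 at 4 DAP and 103 at 6 DAP, and the 3 DAP library broke the increase. The cell wall invertase gene mn1, which cleaves incoming sucrose at the kernel base, had already gone from 3.57 and 1.77 at 0 DAP to 20.3 at 2 DAP and was at 20.1 at 3 DAP. The granule-bound starch synthase gene GBSSIIa rose 2.64 times from 12.9 (2.35 to 2.97), to a level between its 0 DAP levels of 23.9 and 40.9. For sh2, the large subunit of ADP-glucose pyrophosphorylase, the levels were 18.3 at 2 DAP and 23.1 at 3 DAP. It was at 20.2 and 20.7 at 0 DAP, 24.7 at 4 DAP and 2.03 at 6 DAP. This gene is in the list of zein and late starch genes above, and the source of its reads was not tested.

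Marker genes of the basal transfer layer, the endosperm cells that take up maternal nutrients, were low at both ages. Apart from mn1, all 7 detected genes were higher at 3 DAP, with differences from 0.38 to 1.35, but none passed. Their median was 0.79 against 0.28 between the technical replicates. Of these genes tcrr-1, bap-3b, betl10 and MEG1 were below 1 at 2 DAP (0.329 to 0.922) and counted as detected through their 3 DAP level. The direction and the median are therefore partly set by the detection limit. Genes of the list that were not detected were also higher at 3 DAP, at 1.15 or less. At 3 DAP the most abundant of the 7 was betl2, at 7.01. It was at 2.48 and 4.08 at 0 DAP, 2.14 at 2 DAP, 5.97 at 4 DAP and 341 at 6 DAP. Summed v over the 13 matched genes, mn1 included, was 29.4 at 2 DAP and 45.3 at 3 DAP and reached 1264 at 6 DAP.

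The models called by the 4-fold rule mostly did not mark a lasting step. Each was placed by whether its 0 DAP and 4 DAP levels lay nearer to its 2 DAP or its 3 DAP level on the log2(v + 1) scale. Of the 155 higher models 28 were low at 0 and 2 DAP and high at 3 and 4 DAP. For 77 the 2 DAP level was low and the 0, 3 and 4 DAP levels high, the 0 DAP level being taken over both replicates, with median v of 20.2 at 0 DAP, 1.71 at 2 DAP, 21.8 at 3 DAP and 15.6 at 4 DAP. For 17 the 3 DAP level was high and the 0, 2 and 4 DAP levels low. Their median v was 14.6 at 3 DAP, 1.92 at 4 DAP and 6.79 at 6 DAP, an age not used in the placing. For the other 33 the levels at 2 and 4 DAP were low and those at 0 and 3 DAP high.

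Of the 144 lower models 14 kept the step at 4 DAP. For 78 the 3 DAP level was low and the 0, 2 and 4 DAP levels high. Their median v was 23.4 at 0 DAP, 21.9 at 2 DAP, 2.12 at 3 DAP and 19.6 at 4 DAP. For 30 the 2 DAP level was high, at a median of 16.6, and the 0, 3 and 4 DAP levels low, at medians of 0.574 to 2.91. The other 22 were high at 2 and 4 DAP and low at 0 and 3 DAP. The called set was therefore made up largely of models in which 1 library differed from the kernels before and after it. The cause was not tested, since each age has 1 library. Between the technical replicates 11 of the 155 higher (7.10%) and 8 of the 144 lower models (5.56%) also passed the 4-fold rule. Of all 14382 models tested there 0.535% passed, so the called models held a larger share that differed between replicates of 1 sample. All 11 of the higher ones belong to the 77 models low at 2 DAP.

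**Figure D5:**
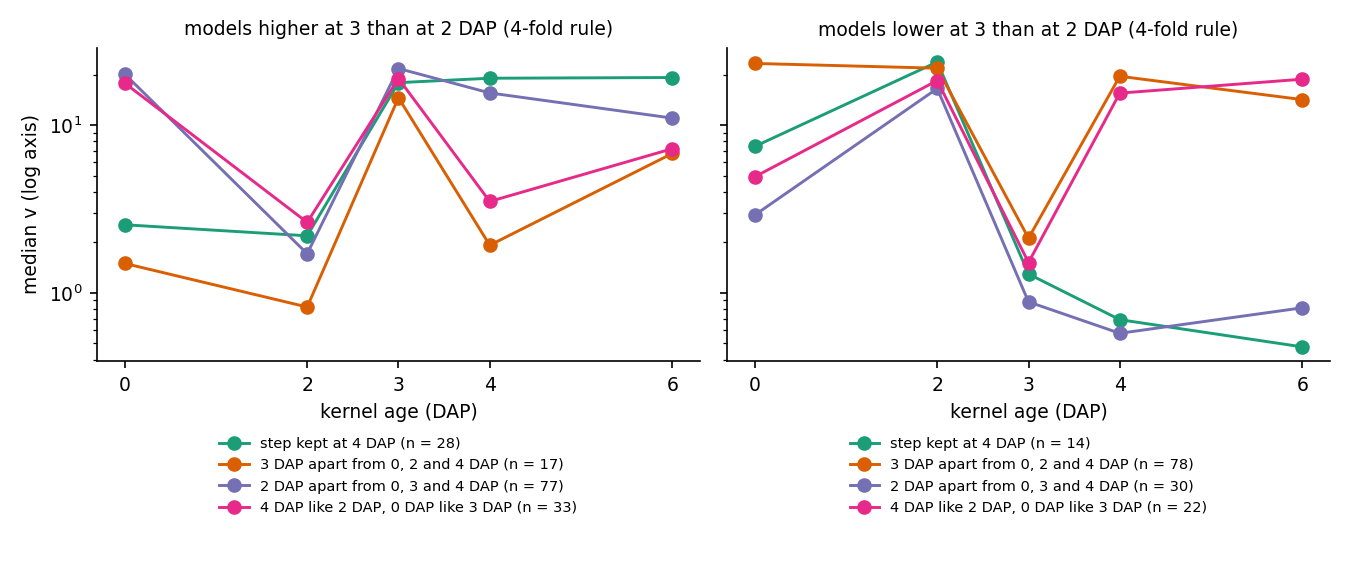
Median v (log axis) by kernel age in DAP of the models at least 4-fold higher (left) or lower (right) at 3 than at 2 DAP, split by the side on which 0 and 4 DAP lay. The largest group on the left (n = 77) is low at 2 DAP, and the largest on the right (n = 78) is low at 3 DAP.

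The 4 unnamed models with the largest differences followed different courses. GRMZM2G413835 had 13 reads at 2 DAP and 2096 at 3 DAP, or a v of 0.428 and 61.7, and was at 0.490 and 0.0759 at 0 DAP and 1.22 at 4 DAP, so among the kernels up to 4 DAP it was high at 3 DAP alone, at 144 times its 2 DAP level (84.1 to 271). GRMZM2G389875 had no read at 2 DAP and 1345 at 3 DAP, at least 401-fold higher against a limit of 3 reads, but it had no read in 0 DAP replicate a and a v of 25.8 in replicate b. GRMZM2G445789 went from 1260 reads to 3, with its 2 DAP level 469.6 times its 3 DAP level (160.3 to 2280.3), and GRMZM2G468521 from 1085 reads to 0, the latter at least 404-fold lower, and both stayed near 0 at 4 and 6 DAP.

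Both lower models belong to a small set present at 2 DAP and in 1 technical replicate only. With replicate a 5 models were shared, at 0.335 to 0.412 times their 2 DAP level, and with replicate b 6 models, at 0.308 to 0.346 times, while v was at most 0.589 in the 3, 4 and 6 DAP libraries. The nearly constant ratios were measured, and their source was not tested.

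Comparisons that share no library with the 2 and 3 DAP pair gave a separate view of the called models. Between 4 and 0 DAP the 4-fold rule called 1.84% of 15205 models higher and 1.31% lower. Of the models higher at 3 DAP 15 (9.68%) were also higher at 4 DAP than at 0 DAP, and 10 (6.45%) were lower. Of those lower at 3 DAP 5 (3.47%) were also lower and 9 (6.25%) were higher. Between 6 and 0 DAP, where 5.47% of models were higher and 3.32% lower, 19 of the higher set were higher and 22 lower, and 13 of the lower set were higher and 24 lower. Each of these shares was above that of all models in its direction, and the excess was not tested.

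Under the technical-spread rule 405 models with a v of at least 10 in a library rose and 378 fell. In the 4 DAP library 268 of the risers (66.2%) lay nearer to their 3 DAP level than to their 2 DAP level. For those that fell the number was 161 (42.6%), and a model nearer to its 2 DAP level can still lie below it, as arpp1a did with 179 at 4 DAP against 322 at 2 DAP.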

How the data were processed

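Poly(A) RNA of B73 kernels was sequenced on the SOLiD 4 system, per the labels' protocols, from 1 of the 3 biological replicates collected at each stage. The authors deposited raw read counts over 110028 gene models, 1 file per library. Bedtools was used per the submitters' processing notes, and for the aligner, genome build, annotation and treatment of reads with several matches the entry is: not given in the sources used here. Models with like counts (1030 in 444 groups, within 2%) are uncertain, and strand was not used.

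Counts were scaled by TMM over the 9 libraries in edgeR 4.0.16 (run in R 4.3.3); CPM of the resulting effective reads is called v. No test was possible with 1 library a side. The calling rules were tested on simulated data. Names came from RefSeq genes of Zm-B73-REFERENCE-NAM-5.0 (2231 usable names), without coordinates. Genes are named as the 20 highest and 20 lowest named ratios, the 2 largest unnamed models a side, the 4 largest changes of each list and 9 key genes; other genes named were chosen after their values were seen. Members and lists were chosen with earlier results of these data known. A list is described by its detected members (mean v of at least 1). Of 29 lists 17 had a median above 0. Those not described above were circadian clock and light (median -0.17), photosynthesis (0.54), homeobox (-0.20) and cell death proteases (-0.23). There were also 8 marker lists, where the median was -0.13 for aleurone and 0.32 for nucellus and pericarp. Alternatives tried were library totals, size factors of DESeq2 1.42.0, other limits, pseudocounts, thinned counts and left-out replicates. Tables were handled with pandas 2.3.3, intervals came from scipy 1.17.1 and plots from matplotlib 3.10.9, under numpy 2.4.6 and Python 3.11.15.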

Additional observations from a re-analysis of the deposited data

How the results depend on the processing

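The 4-fold counts of 155 higher and 144 lower models became 149 and 149 with DESeq2 size factors, 153 and 144 with library totals, 145 and 145 with thinned counts, and 144 and 136 without models called between the technical replicates, a choice made after seeing the data. They became 350 and 331 with no minimum level and 614 and 549 with a fold of 2. The technical-spread counts of 647 and 606 became 326 and 312 at a mean v of at least 10, and 2412 and 2062 with the 95th percentile, as these settings widen or narrow the rule. Which direction held more models turned with the scaling, to 623 higher and 659 lower with DESeq2 size factors, 626 and 653 with kernel-only scaling, and 631 and 635 with thinned counts. Leaving out either 0 DAP replicate gave 145 to 146 higher and 133 to 133 lower models, and 294 to 305 higher and 205 to 221 lower between 4 and 0 DAP. With a pseudocount of 0.1, 15 rather than 9 lower models were higher between 4 and 0 DAP, and the medians of the basal transfer layer and green tissue lists were 1.16 and 1.00; with thinned counts 6 rather than 10 higher models were lower between 4 and 0 DAP; the cause was not tested. The jasmonate list had 6 rather than 7 genes beyond the limit with DESeq2 size factors, kernel-only scaling and thinned counts. In these settings the defence list kept 3 that rose and 3 that fell, so the jasmonate list no longer had the most. TUBB1 and RP-P0 no longer passed with library totals, GLN6 with a pseudocount of 0.1, and TUBB1 and NAC49 with thinned counts. Under DESeq2 size factors, kernel-only scaling and thinned counts the medians of the auxin, MADS-box and AP2/ERF lists, from 0.01 to 0.03, turned below 0. The lowest was -0.04, and the difference of z1A1_5 turned from 0.0043 to between -0.03 and -0.04 in these settings. Other list medians and named genes kept their sign under the other scalings, the pseudocount and thinned counts. Some lists leaned the other way at a mean v of at least 10. There 5 of 7 cytokinin genes were above 0 (11 of 23 in the main setting), and 3 of 7 in the gibberellin list (12 of 18). Of growth-regulating factor genes 2 of 3 were above 0 there (2 of 9 in the main setting). The only basal transfer layer gene left there was mn1, which was not above 0. No paired analysis was possible because each age has 1 biological sample.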

Other observations

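Genes listed by symbol under photosynthesis and related carbon metabolism were mostly higher at 3 DAP, though none passed the technical-spread rule. Of 32 matched genes 10 were detected, and 9 of these were above 0. The median of the 10 was 0.54 against 0.09 between the technical replicates. Of these genes psan1, at 0.428 at 2 DAP and 1.71 at 3 DAP, counted as detected through its 3 DAP level. The gene psat1 entered by a symbol that begins like those of photosystem genes, and its role was not tested. Among 10 green tissue markers only 1 was detected, so the list cannot be read as a measure of photosynthesis. The ferredoxin gene fdx3 was at 39.5 and 45.4 at 0 DAP, 43.2 at 2 DAP, 68.8 at 3 DAP and 42.8 at 4 DAP. Its level reached 618.5 in 12 DAP endosperm. The malic enzyme gene me2 was at 468 and 498, then 420, 524 and 447. In the clock and light list 13 of 16 detected genes were below 0, with a median of -0.17 against 0.12, and again none passed. That list also holds ZCN genes of the PEBP family, which are not clock components, and ZCN4, ZCN3 and ZCN14 were among its 4 largest changes. For ZCN3 the 0 DAP replicates themselves differed, at 3.64 and 0. The labels give no hour of collection, and the list cannot be read as a measure of it. Growth-regulating factor genes and their cofactors, which promote cell proliferation in plant organs, were below 0 in 7 of 9 cases, with a median of -0.36 against -0.01 between the technical replicates.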
